A study of Mus musculus with 8 samples.

Results

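The tumour necrosis factor (TNF) superfamily consists of ligands, mostly trimeric proteins of the cell surface that can be shed, and of the receptors they cluster. Receptors signal through TRAF adaptors to NF-kB or, where they carry a death domain, can also start cell death, and decoy receptors bind a ligand without passing the signal on. Dendritic cells use these proteins to costimulate T cells, to keep B cells alive and to respond to inflammation. The members were taken by symbol: every protein-coding mouse gene whose symbol starts with Tnfsf or Tnfrsf followed by a digit, together with Tnf, Lta, Ltb and Ltbr. That gave 35 genes, 14 ligands and 21 receptors, of 21627 protein-coding genes on the autosomes and X. Superfamily genes with other symbols, such as Cd40 and Fas, are outside this rule and are described separately.

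Open chromatin was measured by ATAC-seq, in which a transposase cuts and tags accessible DNA, in 2 replicates of a mouse CD8-positive dendritic cell line that had received no stimulation. The source field of the labels gives the spleen as origin. The other 6 samples, ChIP-seq of IRF3, IRF5 or IRF9 after 90 min of stimulation, were not analysed here. The labels do not say whether the 2 samples came from separate cultures, so differences between them may be technical.

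Replicate 1 had 50950 peaks and replicate 2 had 58319, and the median summit held 17 reads in replicate 1 and 22 in replicate 2. The weakest listed summits held 7 and 9 reads, so a site with no peak was below detection in these libraries and is not shown to be closed. A region is called shared where peaks of both replicates overlap by 1 bp or more, and there were 44365 of these. Around the 35 genes, meaning inside them or within 50 kb of their ends, 93.4% of 196 peaks of replicate 1 and 77.0% of 226 peaks of replicate 2 had a partner in the other replicate, beside 90% of all peaks of replicate 1 and 76.5% of replicate 2. Their summits lay a median of 20 bp apart between replicates, against 18 bp over all shared regions. For the cell type label, 12 genes listed for CD8-positive (cDC1) dendritic cells were counted, not all of them confined to that cell type. Of these, 6 had a shared region at their start, namely Irf8, Tlr3, Cadm1, Flt3, Id2 and Itgax. All 12 had at least 1 within 50 kb, with a median of 10.5. At least 1 within 50 kb was also found for all 6 genes of each of the cDC2, plasmacytoid, B cell, T cell and NK cell lists and for 5 of 6 macrophage and monocyte genes, beside 79.5% of all coding genes. The medians were 8 for plasmacytoid, 5.5 for T cell and 4.5 for B cell genes. They were 4.5 for macrophage and monocyte, 4 for cDC2 and NK cell genes, and 5 over all coding genes. Batf3, Xcr1, Clec9a, Cd8a, Itgae and Zbtb46 had no shared region at the start. In replicate 2 only, Batf3 had 2 start peaks and Clec9a and Cd8a had 1 each. Itgam, of the cDC2 list, had 1 in replicate 1 only. The count at starts was 0 of 6 for NK cell markers, 2 of 6 for each of the cDC2, B cell and T cell lists, and 4 of 6 for each of the plasmacytoid and the macrophage and monocyte lists. Over all coding genes 48.3% had a shared region at the start, so the 6 of 12 for the cDC1 list was near that share. These counts at starts do not tell the labelled cell type from the others. The median within 50 kb was highest for the cDC1 list, a difference that was not tested. Within that list the numbers ran from 2 for Cd8a to 22 for Batf3.

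Of the 35 superfamily genes 17 had a shared region within 1 kb of the start, which is 48.6%, and 48.3% of all coding genes had one. The family was thus open at its starts about as often as coding genes at large. The split was the same in each replicate: the same 17 starts had a peak in replicate 1 by itself and in replicate 2 by itself, and the other 18 had none in either. Among all coding genes 0.832% had a start peak in replicate 1 only and 2.04% in replicate 2 only. By role, 6 of 14 ligands and 11 of 21 receptors had a shared start region. Among receptors these were 3 of 4 with a death domain, 2 of 3 decoy receptors and 6 of the other 14. Of the 28 genes whose start is listed 13 had one, beside 49.3% of all such coding genes. For Tnfsf4, Tnfsf9, Tnfsf12, Tnfrsf10b, Tnfrsf11b, Tnfrsf22 and Tnfrsf26, the 7 genes without a listed start, either end counted as one. A shared region there was found for 4 of them, beside 44.4% of all such coding genes, and for these 4 it may lie at the other end of the gene.

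**Figure D1:**
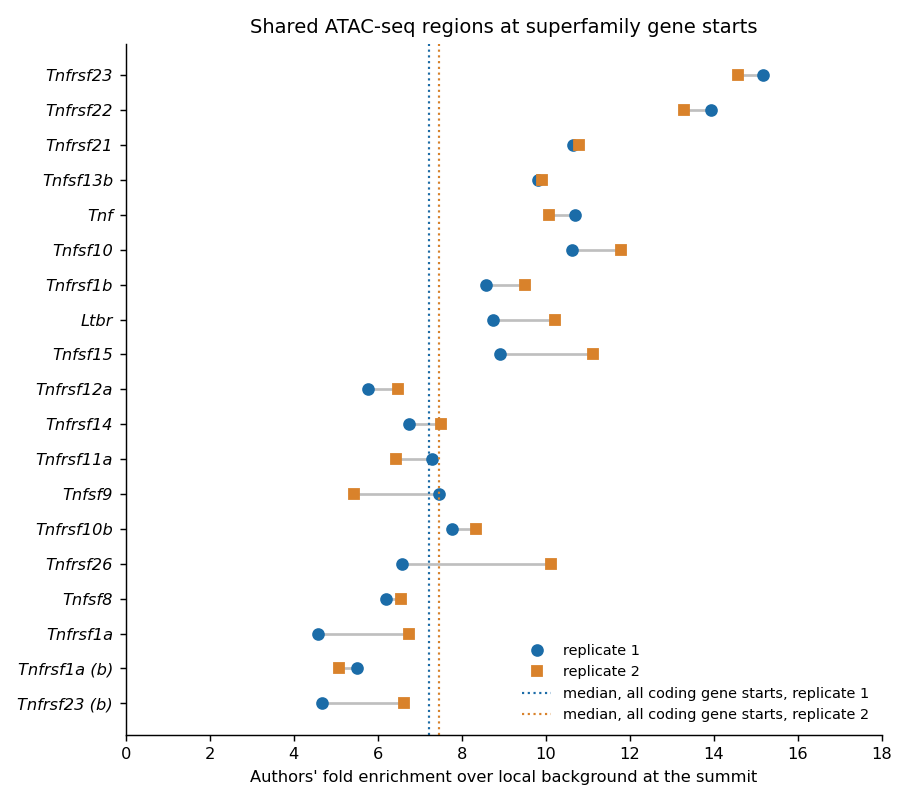
Fold enrichment (authors' values, x axis) at the 19 shared regions within 1 kb of a superfamily gene start, for replicate 1 (circles) and replicate 2 (squares), ordered from the top by the mean score percentile of both replicates; (b) marks a second region of the same gene, and dotted lines give the median over shared regions at all coding gene starts. Tnfrsf23 and Tnfrsf22 stand furthest to the right, at 13.3 or more in both replicates.

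Fold enrichment is the authors' ratio of reads at a summit to the local background of that library, and pairs of values are given with replicate 1 before replicate 2. Over the 19 shared regions at these starts its medians were 7.76 and 9.51. Shared regions at the starts of all coding genes had medians of 7.22 and 7.46. The superfamily values ran from 4.57 to 15.2 in replicate 1 and from 5.07 to 14.6 in replicate 2, so the family held both strong and weak starts. The plot of fold enrichment by gene shows which were which.

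The pair with the strongest starts encodes decoy receptors. Tnfrsf23 and Tnfrsf22 are neighbouring mouse genes on chromosome 7 whose products bind the death ligand TRAIL without a death domain. The Tnfrsf23 region (chr7:143685720-143686005) reached a fold enrichment of 15.2 with 35 reads at the summit in replicate 1, and of 14.6 with 53 reads in replicate 2. Its summits lay at 56 and 47 bp from the start, where positive values are downstream along the gene. A second region, chr7:143686254-143686361, had 4.67 and 6.62. At Tnfrsf22 the region chr7:143649573-143649781 had fold enrichments of 13.9 and 13.3, with 26 and 35 reads. The related receptor gene Tnfrsf26, which lies next to them, had 6.56 and 10.1 at chr7:143628156-143628292, from 10 and 23 reads, and this region lay just outside an end of the gene. The sources used here do not say how reads that match more than 1 of these related genes were placed, and its part in these values was not tested. The 250 bases before the listed Tnfrsf23 start (GRCm38.p6, chr7:143685876-143686125, minus strand, from RefSeq) are shown because this is the strongest start of the family. The annotated gene reaches to 143686436 on that side, so these bases lie inside its bounds. Capitals mark the 124 bases that lay under a peak in both replicates.
Tnfrsf23: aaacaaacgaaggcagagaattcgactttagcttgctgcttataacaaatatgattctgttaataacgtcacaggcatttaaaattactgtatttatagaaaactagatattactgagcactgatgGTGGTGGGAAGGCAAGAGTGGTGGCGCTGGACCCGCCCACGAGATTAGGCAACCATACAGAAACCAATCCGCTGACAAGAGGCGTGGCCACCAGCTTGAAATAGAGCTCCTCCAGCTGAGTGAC

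Other genes of the TRAIL system differed in their signal, and setting them side by side was decided after their values were seen. Tnfsf10, which encodes TRAIL itself, had its start region at chr3:27316924-27317119 with fold enrichments of 10.6 and 11.8 and with 20 and 34 reads. Both summits lay shortly before the start, at -55 and -40 bp. Replicate 2 had a further weak peak of 4.40 beside it. Tnfrsf10b, the mouse TRAIL receptor that carries a death domain, had 7.76 and 8.34 at chr14:69767418-69767539, from 12 and 18 reads. The Tnfrsf10b region was no longer counted when only the better-scoring 50% of each list was used. Tnfrsf11b, whose product osteoprotegerin is also known to bind TRAIL, had no peak at its ends or within 50 kb in either replicate. Tnfsf10 had 3 shared regions in all inside it or within 50 kb, while Tnfrsf10b, Tnfrsf22 and Tnfrsf23 had 6 each. Tnfrsf22, Tnfrsf23 and Tnfrsf26 share regions with each other, so their numbers are not independent.

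Tnf, the inflammatory cytokine, lies between the lymphotoxin genes Ltb and Lta within the class III part of the mouse major histocompatibility complex on chromosome 17. The Tnf start region (chr17:35201928-35202178) reached 10.7 and 10.1, with 27 and 31 reads. Its summits lay at -26 and -72 bp. Neither Lta nor Ltb, whose products together form the membrane ligand of the lymphotoxin beta receptor, had a peak within 1 kb of the start in either replicate. The shared region nearest to the Lta start was 3049 bp away, at chr17:35208400-35208592, with 6.24 and 6.10. The nearest to the Ltb start was 1222 bp away, at chr17:35193093-35193285, with 7.96 and 6.78. A further region lay inside Ltb, at chr17:35195781-35195895, with 6.47 and 6.16. Among these neighbours the signal at the Tnf start was therefore the highest in both replicates. The sequences before the listed starts of Tnf (chr17:35202008-35202257, minus strand) and Lta (chr17:35205352-35205601, minus strand), both GRCm38.p6 from RefSeq, are given to set an open start beside one with no peak. The annotated Lta gene reaches to 35205578 on that side, so most of its printed bases lie inside its bounds. Capitals again mark bases under a peak in both replicates, which were 140 of 250 for Tnf and 0 for Lta.
Tnf: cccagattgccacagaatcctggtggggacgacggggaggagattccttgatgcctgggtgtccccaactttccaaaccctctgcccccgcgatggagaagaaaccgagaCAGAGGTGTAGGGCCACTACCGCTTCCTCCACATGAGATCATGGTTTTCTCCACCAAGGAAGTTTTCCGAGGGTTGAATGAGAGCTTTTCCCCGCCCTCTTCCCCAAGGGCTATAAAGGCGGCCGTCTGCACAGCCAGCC
Lta: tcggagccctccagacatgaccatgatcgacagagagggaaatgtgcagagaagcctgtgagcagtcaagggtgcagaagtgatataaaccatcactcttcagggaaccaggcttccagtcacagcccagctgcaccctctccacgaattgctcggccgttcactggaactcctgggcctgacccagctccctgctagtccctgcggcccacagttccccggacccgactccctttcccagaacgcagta
In the open part of the Tnf promoter lie a TATA box, TATAAA, whose first base is at -29, and a GC box, GGGCGG read on the opposite strand, from -49.

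The TNF receptors were open too, more weakly for the first. Tnfrsf1a, the widely expressed receptor with a death domain, had 4.57 and 6.74 at chr6:125349639-125349768, from 13 and 25 reads, with summits at -26 and -15 bp. It had a second region inside the window, chr6:125350606-125350762, with 5.51 and 5.07 and summits at 935 and 939 bp. Both lay below the family median, and neither was counted with the better-scoring 50% of each list. Tnfrsf1b, the second TNF receptor, which lacks a death domain and signals through TRAF2, had 8.58 and 9.51 at chr4:145246771-145246978, from 20 and 33 reads, with summits at 8 and 19 bp. Inside the same gene, chr4:145233741-145234280 had 11.0 and 10.8, and chr4:145240725-145240935 had 10.4 and 12.4, each above the start in both replicates. Ltbr, the lymphotoxin beta receptor, had 8.73 and 10.2 at chr6:125313775-125314055, from 18 and 29 reads. That region also reached within 1 kb of an end of Scnn1a, a sodium channel gene for which no start is listed.

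**Figure D2:**
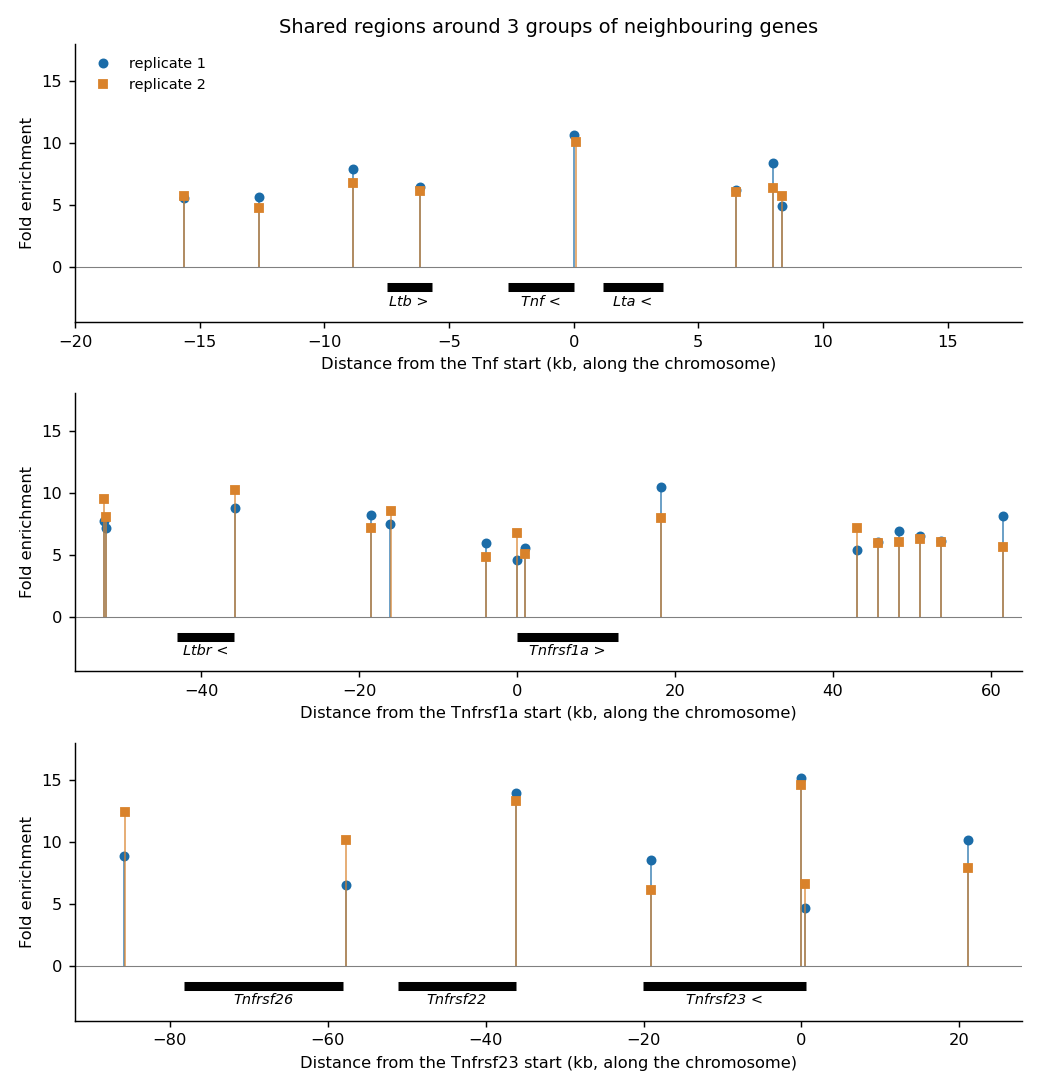
Shared regions around Ltb, Tnf and Lta (top), Ltbr and Tnfrsf1a (middle) and Tnfrsf26, Tnfrsf22 and Tnfrsf23 (bottom), drawn as the authors' fold enrichment (y axis) at the summit in replicate 1 (circles) and replicate 2 (squares) against distance in kb along the chromosome. The outer parts of the flanks are cut off in the top panel and on the left of the middle and bottom panels. Black bars are the genes named, with > or < for strand where a start is listed; the Tnf start reaches 10.7 and 10.1 while no region lies at the Lta start, and 5 regions right of Tnfrsf1a stand at even distances.

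The remaining genes are given by ligand and receptor. The grouping was made after their values were seen, and with 48.3% of all coding genes open at the start, no pattern is read from partners that differ. Among ligands that costimulate T cells, Tnfsf9 (the ligand of 4-1BB), Tnfsf8 (CD30 ligand) and Tnfsf15 (TL1A) had a shared region at the start, and their receptor genes Tnfrsf9, Tnfrsf8 and Tnfrsf25 had no start peak in either replicate. Tnfsf9 had 7.46 and 5.44 at chr17:57105258-57105466, from 24 and 22 reads. Tnfsf8 had 6.19 and 6.55 at chr4:63861298-63861447, from 15 and 20 reads, with summits at -67 and -106 bp. Tnfsf15 had 8.91 and 11.1 at chr4:63745383-63745627, from 15 and 25 reads. The start regions of Tnfsf9 and Tnfsf8, but not that of Tnfsf15, dropped out when only the better-scoring 50% of peaks was kept. The Tnfsf15 summits lay at -457 and -464 bp, the furthest upstream among the starts with a known strand. The nearest shared region was 5486 bp from a Tnfrsf9 start, 14443 bp from the Tnfrsf8 start and 8192 bp from a Tnfrsf25 start.

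Tnfrsf14 (HVEM), Ltbr, Tnfrsf12a (Fn14) and Tnfrsf11a (RANK) were open at their starts, and the genes of their ligands LIGHT (Tnfsf14), TWEAK (Tnfsf12) and RANKL (Tnfsf11) were not. Tnfrsf14, which can both receive LIGHT and engage the inhibitory receptor BTLA, had 6.73 and 7.51 at chr4:154928094-154928267, from 18 and 29 reads. Tnfrsf12a had 5.77 and 6.48 at chr17:23677410-23677607, from 27 and 42 reads. Tnfrsf11a had 7.29 and 6.43 at chr1:105780604-105780810, from 21 and 24 reads, with summits at -47 and -45 bp. These 3 receptor starts were near or below the median of all coding gene starts. Tnfrsf21, a death domain receptor also called DR6, was stronger, with 10.7 and 10.8 at chr17:43016377-43016892, from 29 and 44 reads.

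The B cell survival group showed 1 open ligand. Tnfsf13b, which encodes BAFF, had 9.80 and 9.92 at chr8:10006268-10006949, from 29 and 47 reads, and this region spanned both listed starts of the gene. The summits behind these values lay at 18 and 158 bp from the first listed start. This gap of 140 bp between replicates was the widest among the start regions of the family. The region is made of 2 peaks in replicate 1 and 1 peak in replicate 2, and it was no longer shared when both peaks had to overlap by 50% of their length. Tnfsf13, which encodes the related ligand APRIL, and the receptor genes Tnfrsf13b (TACI), Tnfrsf13c (BAFF receptor) and Tnfrsf17 (BCMA) had no start peak in either replicate. These receptors are known mainly from B cells and plasma cells. The nearest shared region lay 10456 bp from the Tnfrsf13b start, 5230 bp from the Tnfrsf13c start and 1545 bp from the Tnfrsf17 start. The last of these (chr16:11315354-11315436), inside Tnfrsf17, had 8.35 and 7.02. Both genes of the OX40 pair (Tnfsf4 and Tnfrsf4) and both of the GITR pair (Tnfsf18 and Tnfrsf18), ligands and receptors that boost T cell responses, also had no start peak.

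The second measure was the number of shared regions inside a gene or within 50 kb of it. At least 1 was found for 31 of the 35 genes, which is 88.6%, beside 79.5% of all coding genes. The median was 6 per superfamily gene and 5 per coding gene, with quartiles of 4.5 and 8.5 in the family and of 1 and 8 over all coding genes. Ligands had a median of 5 and receptors of 6. When only the better-scoring 50% of each list was used, the medians were 3 in the family and 2 over all coding genes. These 239 gene and region pairs come from 174 separate regions, 44 of which lay around more than 1 member. Of the 174 regions 19 were at a start of the family, 38 at the start of another coding gene, 21 elsewhere inside a family gene and 96 in other parts of the flanks. At some coding gene start lay 32.8% of them, beside 30.1% of all shared regions on the autosomes and X.

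**Figure D3:**
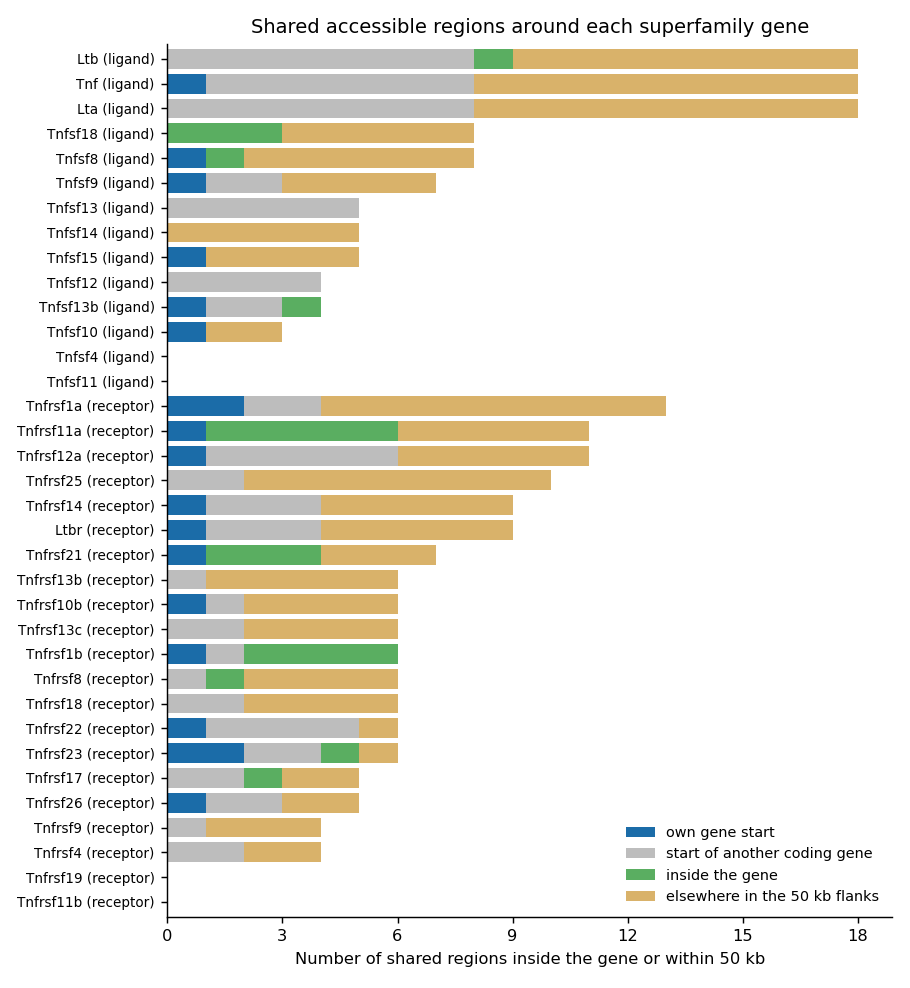
Number of shared regions inside each superfamily gene or within 50 kb of its ends (x axis), for ligands (upper block) and receptors (lower block), coloured by where the region lies. Ltb, Tnf and Lta reach 18 each through the same regions, and Tnfsf4, Tnfsf11, Tnfrsf19 and Tnfrsf11b have 0.

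The highest numbers were 18 each for Tnf, Lta and Ltb, then 13 for Tnfrsf1a and 11 each for Tnfrsf11a and Tnfrsf12a. The 18 are the same regions for all 3 ligand genes. This order depends on the setting. With the better-scoring 50% of each list Tnfrsf12a had 8, and Tnf, Lta, Ltb and Tnfrsf21 had 7 each. Tnfrsf11a, Tnfsf9 and Tnfrsf14 then had 6 each, Ltbr and Tnfrsf8 had 5 each, and Tnfrsf1a had 4. With a flank of 20 kb Ltb had 9, Tnf and Lta had 8 each, Tnfrsf11a had 7, Tnfrsf1a had 6 and Tnfrsf12a had 3. Tnfsf18 and Tnfsf8 were level with Tnfrsf11a at that flank. Of those around Tnf, 7 lay at the starts of other genes of this dense locus, among them Prrc2a, Lst1, Nfkbil1 and Ddx39b, which is an RNA helicase gene. The others include a group before the Lta start at chr17:35208400-35208592, chr17:35209887-35210056, with 8.45 and 6.40, and chr17:35210305-35210469, with 4.91 and 5.78. Around Tnfrsf12a, 5 of 11 lay at starts of other genes such as Thoc6 and Pkmyt1. Tnfrsf11a had 5 regions inside it, more than any other member, among them chr1:105787038-105787327 with 10.1 and 9.39 from 36 and 45 reads. It is also a long gene, with 68772 bp beside a family median of 14868 bp. The longer genes Tnfrsf21 and Tnfrsf19 had 3 and 0 inside. RANK receives RANKL, and the RANKL gene had no shared region around it.

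Tnfrsf1a owed part of its number to an evenly spaced row. In its downstream flank 5 regions, from chr6:125392740-125392884 to chr6:125403316-125403500, had centres 2631.5, 2654.5, 2677 and 2633 bp apart and overlapped no coding gene. Their fold enrichments ran from 5.40 to 6.87 in replicate 1 and from 5.91 to 7.15 in replicate 2. Without these 5, an alternative chosen after seeing the data, Tnfrsf1a had 8 regions.

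Of the 12 strongest regions around the family, 2 were at its starts, where 10.9% of all 174 regions lay. The highest by mean score percentile was chr17:43089516-43089968, just past the annotated end of Tnfrsf21 at 43089188, with 15.8 and 16.99 from 36 and 59 reads. Next came chr17:23700144-23700428, with 17.9 and 14.6 from 51 and 53 reads. It lay upstream of Tnfrsf12a, with summits at -22801 and -22840 bp, but the nearest coding gene start was that of Cldn9, a tight junction gene, at 16118 bp. The Tnfrsf23 start was the third. The region chr4:156067621-156067870, in the flank of Tnfrsf18, had 13.8 and 12.9, and again another gene, Ttll10, had the nearer start. Regions in the flanks were given to no gene as a regulator here.

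Tnfsf18, the GITR ligand gene, had no start peak but 8 regions, and no other coding gene lay within 50 kb of it. Of these, 3 were inside the gene, the highest of them chr1:161500816-161501041 with 8.98 and 10.8. In its flank chr1:161517328-161517687 had 11.0 and 12.4, with summits at 22944 and 22887 bp. Replicate 2 listed 14 peaks around this gene and replicate 1 listed 9, and 6 of the peaks of replicate 2 had no partner. Tnfsf13 and Tnfsf12 showed the opposite makeup. All 5 regions around Tnfsf13 and all 4 around Tnfsf12 lay at starts of other genes, namely Senp3, Eif4a1, Cd68, Mpdu1 and, for Tnfsf13, Fxr2.

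No shared region was found inside or within 50 kb of Tnfsf4, Tnfsf11, Tnfrsf19 and Tnfrsf11b. Tnfsf11 encodes RANKL, the osteoclast differentiation factor, and Tnfrsf11b encodes osteoprotegerin, its soluble decoy receptor, known from stromal and bone cells. Tnfrsf19 (TROY) is known from the nervous system and hair follicles. For Tnfsf11, Tnfrsf19 and Tnfrsf11b neither replicate listed a single peak there. The nearest shared regions lay 202826 bp from the Tnfsf11 start, 125803 bp from a Tnfrsf19 start and 260364 bp from an end of Tnfrsf11b. Tnfsf4, the OX40 ligand gene, differed, since replicate 2 had 2 peaks around it, with fold enrichments of 8.78 and 6.59 from 19 and 14 reads, and replicate 1 had none.

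The open starts of the family held fewer CpG pairs than open starts in general. In the 300-base window around a listed start (250 bases before it and 50 from it on), the ratio of observed to expected CpG had a median of 0.44 over the 14 windows of 13 superfamily genes with a shared region. The 18 windows of family genes without one had a median of 0.36. Over all coding genes the medians were 0.80 with a shared region and 0.27 without. Of the 14 open windows of the family 12 were below 0.80. The exceptions were Tnfrsf11a, at 0.98, and Tnfrsf21, at 0.80 to 2 decimals and just above the median. The lowest were Tnfrsf14, at 0.11, and Tnfsf15, at 0.18. The content of G and C was also lower, with medians of 53.8% in open windows of the family and 61.7% in all open windows.

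**Figure D4:**
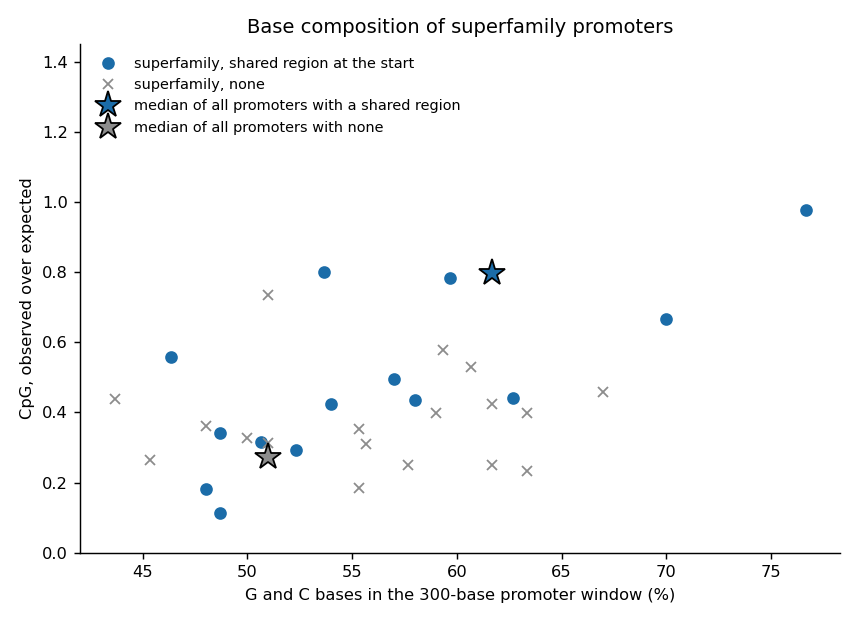
Share of G and C bases (x axis, percent) and observed over expected CpG (y axis) in the 300-base promoter windows of superfamily genes with a shared region within 1 kb of that start (circles) and with none (crosses). Stars give the medians over all coding promoters with a shared region (61.7% and 0.80) and with none (51.0% and 0.27); 12 of the 14 circles lie below the upper star.

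Because the study concerns IRF proteins, the windows were searched on both strands for the letters of an interferon-stimulated response element, namely GAAA, any 2 bases and GAAA. They were found in 3 of the 14 open windows of the family (21.4%) and in 1 of the 18 others (5.56%), beside 3.14% of all open and 3.60% of all other coding promoter windows. The open ones were Tnfrsf14, Tnfrsf1b and Tnfsf13b, and in each the letters lay under a peak in both replicates. The other was Tnfrsf17, which had no peak there. The sites are shown with 10 bases on either side, read on the strand that holds these letters, with the match in capitals (GRCm38.p6, from RefSeq). They are from chr4:154928122-154928151 (plus strand), chr4:145246861-145246890 (plus), chr8:10006607-10006636 (plus) and chr16:11313698-11313727 (minus), in the order of the lines.
Tnfrsf14: aaggaaaagtGAAAATGAAAgaaaaaatag
Tnfrsf1b: gctggtgactGAAAGCGAAAccctcaggcc
Tnfsf13b: tacaaaaactGAAAGTGAAAtgcggaaggc
Tnfrsf17: aactattcctGAAACAGAAAccacctattt
The middle of the letters lay 75 and 11 bp from the summits of replicates 1 and 2 at Tnfrsf14, 13 and 24 bp at Tnfrsf1b, and 136 and 4 bp at Tnfsf13b. A match of letters is no evidence of binding, and the binding of IRF proteins was not analysed here.

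Letters of other motifs were searched on both strands in the same way. NF-kB letters, GGG, any 5 bases and CC, which can match on both strands at 1 place and can hold a GC box, were in 8 of 14 (57.1%) beside 69.2% of all open windows. GC boxes, GGGCGG, were in 7 (50%) beside 67.0%. AP-1 letters, TGANTCA, were in 2 (14.3%), beside 4.36%, but both are the same site, seen in the overlapping windows of the 2 Tnfsf13b starts. TATAAA was in 2 (14.3%), Tnf and Tnfrsf23, beside 6.01%. At Tnfrsf23 it was read on the opposite strand, from -158, outside the bases under a peak in both replicates, which began at -124. The PU.1 letters GAGGAAGT were in 0 of 14 beside 3.45%. In the 18 family windows with no shared region, NF-kB letters were in 11 (61.1%) and GC boxes in 7 (38.9%). AP-1 letters and TATAAA were in 4 each (22.2%) and the PU.1 letters in 1 (5.56%). Over all coding windows with none, the shares were 47.1%, 28.4%, 9.45%, 18.7% and 2.88% in this order. AP-1 letters and TATAAA were thus no more frequent in the open windows of the family than in its other windows.

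The rest of the pathway was covered by 2 lists. Among superfamily genes with other symbols 2 of 11 (18.2%) had a shared start region, beside the 48.3% of all coding genes. Cd40, the receptor through which T cells license dendritic cells, had 3 such regions, the highest of them chr2:165055538-165055716 with 9.24 and 9.61. Relt, a receptor gene, had 2, the highest with 6.08 and 9.43. The genes Fas, Fasl, Cd27, Cd70, Cd40lg, Ngfr, Eda, Edar and Eda2r had none at the start. The second list held adaptor and downstream signalling genes: Traf1 to Traf6, Tradd, Fadd, Ripk1, Casp8, Cflar, Birc2, Birc3, Map3k14, Chuk, Ikbkb and Ikbkg. It stood at 16 of 17 (94.1%), with a median of 9 regions inside or within 50 kb. Traf2, which binds many of these receptors, had 12.5 and 11.2, Casp8, the caspase of death receptors, had 9.08 and 13.6, and Ripk1 had 8.17 and 7.97. The exception was Traf1, with no start peak in either replicate but 9 regions within 50 kb. These listed adaptor and downstream signalling genes thus had open starts in nearly every case. The 35 ligand and receptor genes had them about as often as coding genes at large.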

How the data were processed

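ATAC-seq peak lists of 2 samples of unstimulated cells were used, 1 list per sample, in the layout that MACS2 writes. Build mm10 and the tools MACS2, HOMER 4.9.1, Picard 2.8.1, BWA 0.7.17 and Trimmomatic come from the submitters' processing notes. Which role each had, how reads were shifted for the transposase, and how duplicates and reads matching several places were treated are not given in the sources used here. Each of these steps could add or remove weak peaks. The deposited fold enrichment is the authors' ratio of summit reads over local background, within 1 library. The deposited −log10 p and −log10 q and the deposited score, which is 10 times the −log10 q cut to a whole number, are the authors' values, and they served to rank and filter peaks within a list.

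Summits of 1 peak were joined, and overlapping peaks of both lists (1 bp or more) were merged into shared regions. A region's values are those of its highest scoring summit in each replicate. Summit reads were recovered by solving the fold enrichment together with the Poisson p, which came back within 0.002 for 100% of summits. Overlap and read recovery were tested on simulated data. Gene bounds came from RefSeq on GRCm38.p6, which has the same chromosome sequences as mm10. Gene starts came from its promoter table, which lists 28 of the 35 genes. For genes without a listed start, either end of the gene stood in, and this holds for the background genes too. Full values are given for genes with a region at the start, for those with the most regions and for those with none. The members, lists, motifs and rules were chosen with earlier results of these data known. With 2 samples of 1 group no test between groups was possible, and no p-value is given. Python 3.11.15, numpy 2.4.6, pandas 2.3.3, scipy 1.17.1 and matplotlib 3.10.9 were used.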

Additional observations from a re-analysis of the deposited data

How the results depend on the processing

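With each share of all coding genes in brackets, the number of superfamily genes with a shared start region was 17 in replicate 1 by itself (49.29%), in replicate 2 by itself (50.53%) and with the union of both (51.37%). It was 12 with the better-scoring 50% of each list (35.45%), where Tnfrsf10b, Tnfrsf1a, Tnfrsf26, Tnfsf8 and Tnfsf9 dropped out, and 16 with a reciprocal overlap of 50% (44.73%), where Tnfsf13b did. It was 17 with a 500 bp window (46.29%) and 19 with 2 kb (50.99%), where Ltb and Tnfrsf17 came in. It was 20 with either end of every gene (47.83%) and 13 of 25 at 1 member per 100 kb (48.27%). The genes with at least 1 shared region nearby numbered 31 in replicate 1 by itself (80.12%) and 32 in replicate 2 by itself (82.15%). Over the other settings with all members they numbered from 29 to 32, among them 29 with the better-scoring 50% (72.0%) and 32 with the union (82.57%). At 1 member per 100 kb they were 21 of 25 (79.48%). The median number per gene was 7 in replicate 1 by itself (5 over all coding genes) and 8 in replicate 2 by itself (6). It was 3 with the better-scoring 50% (2), 3 with a 20 kb flank (2) and 11 with 100 kb (8). Leaving out the evenly spaced run beside Tnfrsf1a kept this median at 6. The share of peaks with a partner moved with the better-scoring 50% to 78.70% in replicate 1 and 70.94% in replicate 2, and with a reciprocal overlap of 50% to 80.61% and 70.35%. The shares over all peaks moved to 85.04% and 73.20% and to 79.32% and 69.29%. In the main setting the family shares were above those of all peaks, at 93.4% beside 90% and 77.0% beside 76.5%. With the better-scoring 50% they were below them in both replicates, and with the reciprocal overlap they were above them. No paired analysis was possible because the samples analysed form 1 group. Depth limits every absence: sites below 7 reads in replicate 1 or 9 in replicate 2 are not in the lists.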
